A study of Mus musculus with 8 samples.

Results

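The respiratory chain and the ATP synthase are the protein machines of the inner mitochondrial membrane that make most of the ATP of heart muscle. Their nuclear genes were followed in atrioventricular canals of mouse embryos, the segment of the heart tube in which the endocardial cushions form. The genes were chosen by symbol: the Nduf genes of complex I, Sdha to Sdhd of complex II, the Uqcr genes and Cyc1 of complex III, the Cox4 to Cox8 genes of complex IV, the Atp5 genes of complex V, and Cycs. The rule reads symbols alone, but it was set with earlier results of these data known. It gave 83 genes with 169 probe sets, out of 18194 genes that have a probe set with a single gene symbol. By complex there were 35, 4, 9, 17 and 17 genes for complexes I to V, and Cycs. For each gene the probe set with the highest mean over all 8 arrays was used.

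The study compared 4 control pools, Gata4flox/flox, with 4 mutant pools, Gata4flox/flox; T2Cre+, all on a mixed background of the strains C57BL6 and 129. T2Cre is Cre recombinase driven by the Tie2 (Tek) promoter. It targets floxed Gata4 in the endothelium and its descendants in the cushions, and the heart muscle was not targeted. Each pool held 10 microdissected canals, and 50 ng of total RNA per pool was amplified and hybridised to an Affymetrix whole-genome mouse array. All 8 pools carried floxed Gata4, no label gives the controls a Cre transgene, and the sources used here do not state the embryos' age. The labels do not say which litters or days the pools came from, so p values measure only the spread between these pools. In pools of whole canals, fewer cells of a type and less RNA per cell cannot be told apart.

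As background, electrons from NADH enter at complex I and those from succinate at complex II. They pass through complex III, the soluble carrier cytochrome c and complex IV to oxygen. The proton gradient built on the way drives complex V, the ATP synthase. Most subunits are encoded in the nucleus, and a few central ones in mitochondrial DNA. Heart muscle holds much of this machinery, and for several small complex IV subunits the heart and skeletal muscle use an isoform of their own.

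Values are log2(signal + 16) after quantile normalization, and a change is mutant minus control on that scale, which understates the change of dim genes. Above background means a signal over the 90th percentile of the array's 27 bacterial control probe sets, whose RNA is normally absent. Controls 2 and 3 stood apart: the median signal of those bacterial probe sets was 158 and 135 there, against 4.0 to 39.3 on the other 6 arrays, and their weights in the fit were 0.302 and 0.35. The 3 prime to 5 prime log2 ratio of Actb ran from 1.14 to 1.40 in controls and from 1.31 to 1.51 in mutants. The brighter of 2 Gata4 probe sets read 11.15, 11.07, 11.42 and 11.38 (log2) across controls 1 to 4 and 11.10, 11.28, 11.18 and 10.93 across mutants 1 to 4. The dimmer one, above background on 2 control and 4 mutant arrays, read 6.90, 5.05, 5.20 and 8.13 in the controls and 7.68, 7.78, 7.86 and 7.94 in the mutants. The changes were -0.15 (SE 0.11) and 0.98 (SE 0.45), so the 2 probe sets differ in sign. In canals whose muscle was not targeted, and with no probe positions in the sources used here, these values do not check the deletion.

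Of the 83 genes, 80 were tested, and 74 were above background on all 8 arrays. Ndufa4l2, Cox7b2 and Cox8c were too dim to be tested, and were above background on 0, 0 and 1 control arrays and on 3, 1 and 1 mutant arrays. Most of the subunit genes lay slightly higher in the mutant pools. The change was above 0 for 71 of 80 genes (88.75%), where 53.2% of all 12069 named genes tested lay above 0. The median change was 0.12, with quartiles of 0.06 and 0.22, which is a median ratio of 1.09. The median over all named genes was 0.02. The changes were small: 78 of 80 genes lay within 0.5 on the log2 scale, and 11 genes had a ratio above 1.2.

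No single subunit gene passed the threshold. At a Benjamini-Hochberg adjusted p under 0.05 in limma over all 27022 probe sets tested, 0 of 80 genes were called, where 12 probe sets (0.0444%) were called in all. The lowest adjusted p of a subunit gene was 0.172. At an unadjusted p under 0.05, 19 of 80 genes (23.8%) were higher and 0 were lower, against 7.31% of all named genes higher and 5.61% lower. That count depends on the fit: with limma's eBayes step run without its trend and robust options, 5 subunit genes had such a p. The share of all named genes in that fit was not computed. The shares by complex given below come from the fit with both options. In 13 genes (16.2%) every mutant array lay above every control array, against 4.97% of all named genes, and in 0 genes every mutant array lay below, against 3.19%. The subunit genes are bright, and their median standard error was 0.08, against 0.22 over all named genes. Without control 1 there were 6 subunit genes called (7.5%), Ndufa8, Uqcrc2, Cox7c and Atp5md among them, against 6.22% of all tested probe sets. Without control 4 there were 5 (6.25%), with the same 4 among them, against 6.15%. Both shares are near the background. Without control 3 there was 1 (Atp5md), against 109 probe sets (0.403%) in all. Without control 2 and without mutants 1 to 4 in turn 0 of 80 were called, against 0.0481%, 0.0185%, 0.0629%, 0.2% and 0.0444% of all tested probe sets. Without controls 2 and 3 together 0 were called, against 2 probe sets (0.0074%) in all, 71 of 80 genes lay above 0 with a median of 0.12, and 11 (13.8%) had an unadjusted p under 0.05, against 4.14% of all named genes.

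The size of the shift depends on the scaling. Over all probe sets tested the median change was 0.03 after quantile normalization, -0.10 under the authors' scaling alone and 1.14 with arrays centred on their medians. Relative to that median the subunit genes lay at 0.10, 0.31 and 0.63, and with centred arrays 78 of 80 genes (97.5%) and 19154 probe sets in all (70.9%) were called. The 9 genes with a change below 0 are named with their complexes, and all of them except Cox6b2 lay above that median under both other scalings, whereas Cox4i2 lay below it. By complex, the medians relative to all tested probe sets were 0.11, -0.07, 0.12, 0.11 and 0.04 for complexes I to V. Without controls 2 and 3 they were 0.14, -0.08, 0.10, 0.11 and 0.08. The 0.10 for all subunit genes was smaller without control 1 and without control 4, the lowest values with an array left out.

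**Figure D1:**
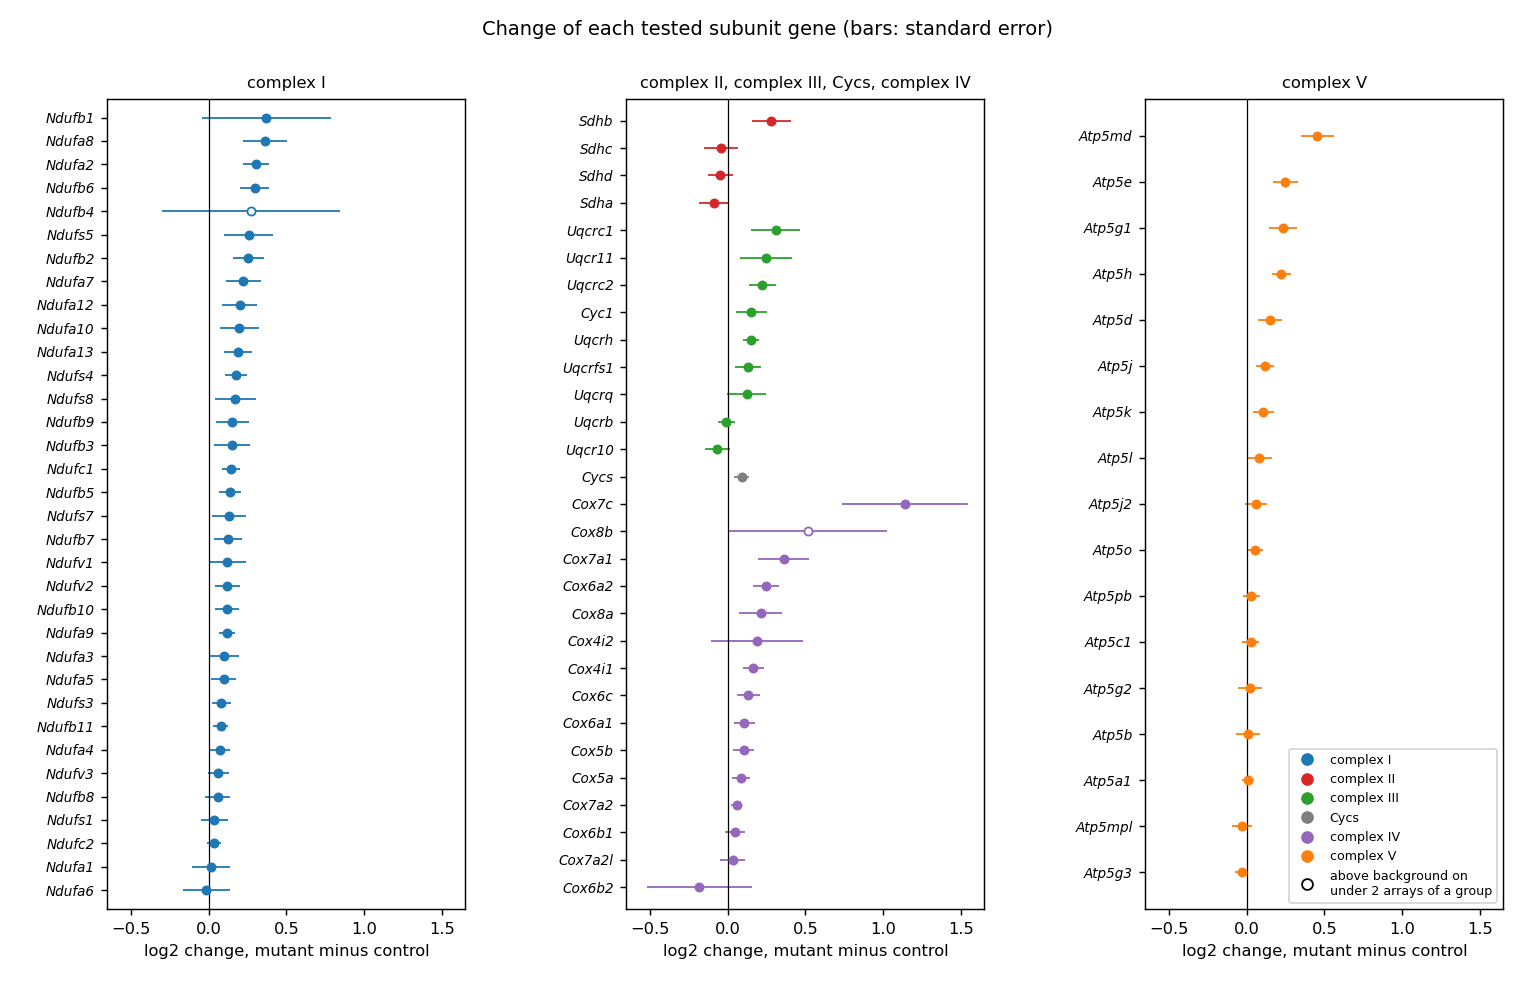
The log2 change, mutant minus control, of each of the 80 tested subunit genes (points) with its standard error (bars), by complex, from 4 control and 4 mutant arrays; open points are above background on under 2 arrays of a group. Points lie to the right of 0 for 71 of 80 genes, and 3 of the 4 complex II genes lie to the left.

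The shift could be seen array by array. When each gene was set against its own mean over the 8 arrays, the median deviation of the 80 genes was -0.041, -0.089, -0.044 and -0.074 in controls 1 to 4 and 0.065, 0.107, 0.053 and 0.033 in mutants 1 to 4. The groups did not overlap. Over all 12069 named genes the same medians were 0.041, -0.040, -0.017 and 0.035 in the controls and 0.033 to 0.043 in the mutants. Mutant 2 was the highest of the 8 arrays for 32 of the 80 genes, and control 2 the lowest for 24 and control 4 for 21. The spread was unequal too, with a larger SD among controls than among mutants for 53 of 80 genes.

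**Figure D2:**
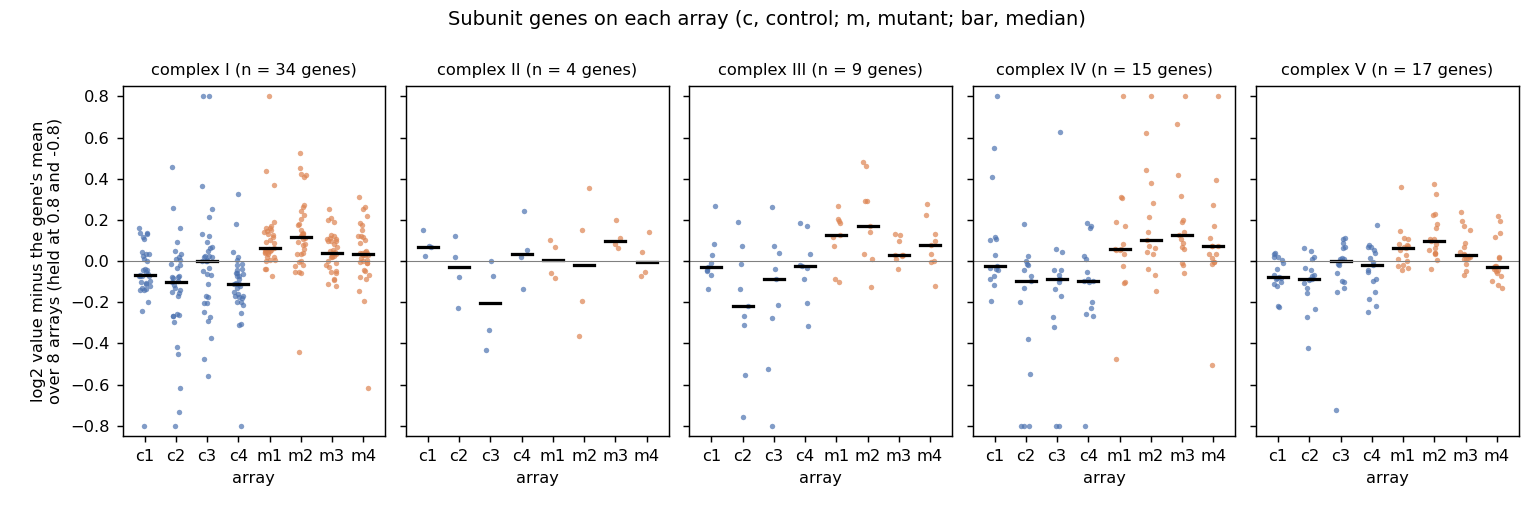
Each point is a subunit gene on an array, as its log2 value minus its mean over the 8 arrays, in a panel per complex with 34, 4, 9, 15 and 17 genes; bars are medians, c1 to c4 are controls and m1 to m4 mutants, and points beyond 0.8 or -0.8 are drawn at that limit. In complexes I, III and IV the 4 mutant medians lie above the 4 control medians, in complex V mutant 4 (-0.031) lies below controls 3 and 4, and in complex II the groups interleave.

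The promoters of these genes share letters that the choice by symbol did not use. RefSeq promoter windows of 300 bases on GRCm38.p6, from 250 bases before to 50 after the start, were at hand for 67 of the 83 genes. The 67 genes had 72 windows, since 5 of them had more than 1, and a gene was counted as holding a motif when any of its windows did. Each motif was searched on both strands, and the motifs can overlap one another. The NRF1 core GCATGCGC, whose factor is a known activator of respiratory genes, was in the windows of 10 of 67 genes (14.9%) and of 3.05% of all 27025 genes. The ETS motif CGGAAG, which GABPA can bind, was in 29 (43.3%) and in 18.8% of all. The YY1 motif AAGATGGC was in 13.4% against 3.19%, the ERRA motif AAGGTCA in 11.9% against 5.38%, the SP1 motif GGGCGG in 43.3% against 38.2%, and the GATA motif GATAA in 25.4% against 28.4%. The windows of the subunit genes were also richer in G and C, with a median over genes of 58.5% against 52.8%. These are matches of letters, not sites.

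The 10 genes with the NRF1 core were Ndufa6, Ndufa8, Sdhb, Uqcr11, Uqcrc1, Cycs, Cox6a1, Atp5g2, Atp5k and Atp5l, so that every complex had at least 1. The medians with and without a match were close: the median change was 0.11 for the 10 genes with the core (9 above 0) and 0.12 for the 56 tested genes without it (51 above 0). For the ETS motif it was 0.12 with (28 of 29 above 0) and 0.12 without (32 of 37). The stretches from 135 bases before to 45 after the start are printed for a gene of each complex and for Cycs, because they show where the letters lie relative to the start in genes described next. They read 5′ to 3′ on the strand of the gene. Capitals mark the NRF1 core and the ETS motif, which reads CTTCCG where it lies on the opposite strand. The core begins 8 bases before the start in Ndufa8, 54 in Sdhb and 60 in Cycs.
Ndufa8, complex I, chr2:36049294-36049473, minus strand: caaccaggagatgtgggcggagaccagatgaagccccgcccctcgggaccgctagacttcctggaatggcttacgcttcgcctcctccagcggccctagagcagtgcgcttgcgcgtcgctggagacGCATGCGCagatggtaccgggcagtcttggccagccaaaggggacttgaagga
Sdhb, complex II, chr4:140961136-140961315, plus strand: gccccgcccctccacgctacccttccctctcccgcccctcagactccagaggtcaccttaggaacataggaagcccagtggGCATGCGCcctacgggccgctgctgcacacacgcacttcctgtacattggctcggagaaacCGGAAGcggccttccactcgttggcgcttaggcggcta
Uqcrh, complex III, chr4:116075026-116075205, minus strand: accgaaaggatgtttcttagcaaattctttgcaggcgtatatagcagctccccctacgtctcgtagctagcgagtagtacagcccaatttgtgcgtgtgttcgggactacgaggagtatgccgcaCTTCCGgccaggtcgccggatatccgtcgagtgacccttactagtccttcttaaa
Cycs, carrier, chr6:50566525-50566704, minus strand: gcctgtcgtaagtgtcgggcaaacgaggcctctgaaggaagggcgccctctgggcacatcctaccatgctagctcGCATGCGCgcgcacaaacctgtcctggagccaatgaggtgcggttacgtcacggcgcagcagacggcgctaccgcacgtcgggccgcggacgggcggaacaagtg
Cox6b1, complex IV, chr7:30626070-30626249, minus strand: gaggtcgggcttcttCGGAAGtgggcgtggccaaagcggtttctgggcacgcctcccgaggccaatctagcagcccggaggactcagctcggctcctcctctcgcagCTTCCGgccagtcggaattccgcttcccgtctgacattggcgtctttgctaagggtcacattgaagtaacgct
Atp5md, complex V, chr19:47090603-47090782, minus strand: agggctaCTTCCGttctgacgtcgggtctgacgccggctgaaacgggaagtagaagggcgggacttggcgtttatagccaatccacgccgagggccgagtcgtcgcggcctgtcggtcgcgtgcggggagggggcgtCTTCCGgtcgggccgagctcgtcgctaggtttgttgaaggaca

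Complex I, which oxidises NADH, had 33 of its 34 tested genes above 0, with a median of 0.13. At an unadjusted p under 0.05, 8 (23.5%) were higher, against 7.31% of all named genes. In 6 (17.6%) the mutants lay above the controls without overlap, against 4.97%. The 6 core subunits of the electron path (Ndufs1, Ndufs3, Ndufs7, Ndufs8, Ndufv1 and Ndufv2) all lay above 0, between 0.04 and 0.17. Of 27 accessory subunits 26 did, between -0.01 and 0.37. Ndufa4 is counted here by its symbol, although its product is now placed with complex IV.

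Ndufa2, an accessory subunit with a thioredoxin-like fold (Entrez Gene 17991), had the lowest p in complex I. Its log2 values were 11.34, 11.40, 11.21 and 11.31 across controls 1 to 4 and 11.61, 11.74, 11.59 and 11.63 across mutants 1 to 4. The lowest mutant lay clear of the highest control, and the change was 0.30 (SE 0.08, limma adjusted p = 0.219). Ndufb6 (Entrez Gene 230075) had 11.73, 11.69, 11.52 and 11.63 in the controls and 12.00, 11.94, 11.83 and 12.12 in the mutants. Again no mutant reached down to a control, with a change of 0.30 (SE 0.09, limma adjusted p = 0.253). The second Ndufb6 probe set gave 0.18 with overlapping groups.

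Ndufa8 (Entrez Gene 68375), whose promoter holds the NRF1 core just before its start, had 10.74, 9.79, 10.15 and 10.59 in the controls and 11.06, 11.05, 10.83 and 10.80 in the mutants. The mutants were close together and the controls wide apart, with controls 2 and 3 the lowest. Its change was 0.36 (SE 0.14, limma adjusted p = 0.338). Set against the median of all tested probe sets, the change came to 0.34, and to 0.22 without controls 2 and 3. Ndufb2 had 11.14, 11.11, 10.87 and 11.18 in the controls and 11.26, 11.66, 11.34 and 11.37 in the mutants, a change of 0.26 (SE 0.10). Ndufa7 had 10.66, 10.46, 10.48 and 10.65 in the controls and 10.88, 11.13, 10.80 and 10.76 in the mutants, a change of 0.22 (SE 0.11). Both are small accessory subunits, and in each the lowest mutant lay close above the highest control. The other 4 probe sets of Ndufa7 gave -0.16, 0.18, 0.20 and 0.32, all with overlapping groups. Those of Ndufb2 gave 0.24 and 0.40, also with overlapping groups.

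Ndufs4, an accessory subunit whose loss is known to cause mitochondrial disease, showed probe sets that disagree. Its brightest one had 11.77, 11.68, 11.77 and 11.76 in the controls and 11.96, 11.83, 11.94 and 11.95 in the mutants. The groups did not overlap, with a change of 0.18 (SE 0.07, limma adjusted p = 0.353). The other 3 probe sets of the gene gave -0.20, -0.36 and -0.37 with overlapping groups. Ndufa6, the single complex I gene below 0, had a change of -0.01 (SE 0.15), and Ndufa4 one of 0.07 (SE 0.06).

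Complex II, succinate dehydrogenase, links the tricarboxylic acid cycle to the chain and is the one complex with no subunit in mitochondrial DNA. Of its 4 genes 1 (25%) lay above 0, with an unadjusted p under 0.05 and no overlap, and the median change was -0.04. Over all named genes 7.31% were higher at that p, and 4.97% were higher without overlap. Sdhb, the iron-sulfur subunit (Entrez Gene 67680), read 10.33, 10.07, 9.87 and 10.17 (log2) across controls 1 to 4 and 10.37, 10.66, 10.50 and 10.44 across mutants 1 to 4. Its groups did not overlap, though mutant 1 lay close to control 1, and its change was 0.28 (SE 0.12, limma adjusted p = 0.37). The other three subunits overlapped between groups.

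Sdha, the flavoprotein that binds succinate, had 12.21, 12.18, 11.98 and 12.07 in the controls and 12.16, 11.69, 12.17 and 11.98 in the mutants, a change of -0.09 (SE 0.10). Mutant 2, where 32 of the 80 subunit genes were highest, was the lowest array for Sdha. Sdhc, a membrane anchor, had 11.10, 10.96, 10.70 and 11.28 in the controls and 10.96, 11.19, 11.12 and 10.98 in the mutants, a change of -0.04 (SE 0.11). Sdhd, the second anchor, had 11.91, 11.86, 11.84 and 11.89 in the controls and 11.79, 11.65, 11.90 and 11.89 in the mutants, a change of -0.05 (SE 0.08). The other tested probe sets gave 0.004 and -0.12 for Sdha, -0.12 (SE 0.16) for Sdhc and 0.63 (SE 0.39) for Sdhd. The difference between complex II and the other complexes was not tested. The sign of the complex II median depends on the processing. Relative to the median of all tested probe sets, complex II lay at -0.07. It lay at 0.14 under the authors' scaling and at 0.62 with arrays centred on their median. On the same relative scale it also lay above 0 without control 1, without control 4, and when all tested probe sets of each gene were averaged. The unweighted group means of Sdhc were 11.01 in controls and 11.06 in mutants, opposite in sign to its weighted change.

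Complex III, which passes electrons from ubiquinol to cytochrome c, had 7 of 9 genes above 0 and a median of 0.15. At an unadjusted p under 0.05, 2 (22.2%) were higher, and 1 (11.1%) was higher without overlap, against 7.31% and 4.97% of all named genes. The 4 catalytic and core subunits (Cyc1, Uqcrfs1, Uqcrc1 and Uqcrc2) lay between 0.13 and 0.31, and the 5 small subunits between -0.06 and 0.25. Uqcrh, the acidic hinge protein at the cytochrome c docking side (Entrez Gene 66576), read 13.14, 13.14, 13.24 and 13.26 (log2) across controls 1 to 4 and 13.41, 13.42, 13.30 and 13.31 across mutants 1 to 4. The groups were narrow and did not overlap, with a change of 0.15 (SE 0.05, limma adjusted p = 0.292). Its second probe set gave 0.16, also without overlap.

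Uqcrc2, a core protein, had 12.49, 12.01, 12.28 and 12.73 in the controls and 12.76, 12.85, 12.69 and 12.66 in the mutants. Control 4 lay within the mutant range, and the change was 0.22 (SE 0.09, limma adjusted p = 0.338). Relative to all tested probe sets it came to 0.20, and to 0.09 without controls 2 and 3. The second Uqcrc2 probe set, also bright, gave a smaller change of 0.09 (SE 0.07) with overlapping groups. Cyc1, the cytochrome c1 subunit, had 11.11, 11.35, 11.07 and 10.85 in the controls and 11.24, 11.33, 11.19 and 11.16 in the mutants, a change of 0.15 (SE 0.10). Uqcrb and Uqcr10, both small subunits, had changes of -0.01 (SE 0.05) and -0.06 (SE 0.08). Control 3 was high for Uqcr10, at 11.95, where the other controls were at 11.66 to 11.68. Its other probe sets gave 1.04 (SE 0.37), above background on 1 control array, and -0.14 (SE 0.26), and the other one of Uqcrb gave 0.02 (SE 0.06).

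Cycs, the gene of somatic cytochrome c (Entrez Gene 13063), had 13.11, 13.13, 13.11 and 13.24 in the controls and 13.23, 13.31, 13.22 and 13.26 in the mutants. Control 4 reached into the mutant range, and the change was 0.09 (SE 0.05, limma adjusted p = 0.467).

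Complex IV, cytochrome c oxidase, had 14 of 15 tested genes above 0 and a median of 0.13. At an unadjusted p under 0.05, 4 (26.7%) were higher, and 2 (13.3%) were higher without overlap, against 7.31% and 4.97% of all named genes. Cox7c (Entrez Gene 12867) showed the largest change of the 80 genes, with a wide error. Its log2 values were 8.59, 6.10, 5.50 and 8.23 across controls 1 to 4 and 8.885, 8.996, 8.969 and 9.057 across mutants 1 to 4. Background was exceeded on 2 control arrays and 4 mutant arrays, and controls 2 and 3 were the lowest. The change was 1.14 (SE 0.40, limma adjusted p = 0.304). Relative to all tested probe sets it came to 1.12, and to 0.65 without those 2 controls.

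Several complex IV subunits come in a general and a muscle or tissue isoform, and these were compared within each array. Cox6a2 is the heart and skeletal muscle isoform of subunit VIa (Entrez Gene 12862). It had 11.28, 11.20, 11.29 and 11.31 in the controls and 11.58, 11.44, 11.58 and 11.46 in the mutants, without overlap, and a change of 0.25 (SE 0.09, limma adjusted p = 0.29). Its general partner Cox6a1 had 12.76, 12.76, 12.75 and 12.74 in the controls and 12.69, 12.86, 12.94 and 12.87 in the mutants, a change of 0.11 (SE 0.06). From unweighted group means, the difference Cox6a2 minus Cox6a1 was 0.16 larger in the mutants (SD 0.05 in controls and 0.15 in mutants, n = 4 each), with 4 of 4 mutants above all controls. By a two-sided exact permutation test p was 0.0286, the smallest that groups of 4 can give. After Benjamini-Hochberg adjustment of the permutation p over the 7 isoform pairs compared, it was 0.0667. An adjusted p under 0.05 was possible only if most of the 7 pairs lay at that smallest value. Without controls 2 and 3 the difference was 0.14. The second probe sets, not used in the pair, gave 0.48 (SE 0.25) for Cox6a2 and 0.05 (SE 0.08) for Cox6a1, both with overlapping groups.

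Cox7a1, the muscle isoform of subunit VIIa, had 9.82, 9.17, 9.40 and 9.62 in the controls and 10.03, 9.57, 10.14 and 9.99 in the mutants, a change of 0.36 (SE 0.17, limma adjusted p = 0.386). Mutant 2 lay within the control range. The general isoform Cox7a2 lay between 14.28 and 14.36 in the controls and 14.34 and 14.41 in the mutants, a change of 0.06 (SE 0.04). The difference between them was 0.37 larger in the mutants (two-sided exact permutation p = 0.114, adjusted 0.2) and 0.15 without controls 2 and 3. The second Cox7a2 probe set, not used in the pair, gave 0.11 (SE 0.04) without overlap. The related Cox7a2l, known for its part in joining complexes III and IV, had a change of 0.03 (SE 0.08).

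The remaining pairs did not separate the groups. Cox4i2, an isoform of subunit IV known from lung and hypoxia, had 8.03, 6.78, 7.35 and 7.36 in the controls and 7.73 to 8.07 in the mutants, a change of 0.19 (SE 0.30), and Cox4i1 had 0.17 (SE 0.07). Their difference was 0.32 larger in the mutants (two-sided exact permutation p = 0.314) and -0.07 without controls 2 and 3, so that its sign rests on those arrays. Cox6b2, known from testis, had a change of -0.18 (SE 0.34) and Cox6b1, whose promoter carries 2 ETS motifs, one of 0.05 (SE 0.06), with a difference of -0.33 (p = 0.314, same exact permutation test). The second Cox6b1 probe set gave 0.20 without overlap. Cox8b, the muscle form of subunit VIII, was above background on 1 control and 4 mutant arrays, so no size is given, and Cox8a had 0.21 (SE 0.14).

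**Figure D3:**
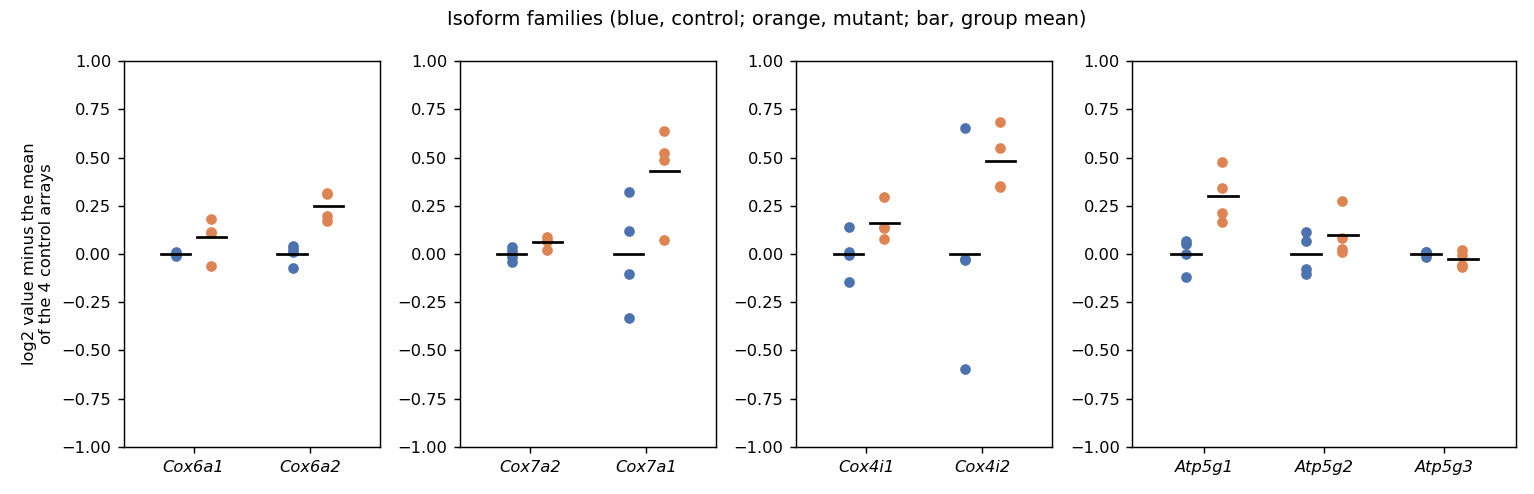
Log2 values minus the mean of the 4 control arrays for isoforms of complex IV and of the ATP synthase c ring; blue points are control and orange points mutant arrays, and bars are unweighted group means. Cox6a2 and Atp5g1 separate the groups, while Cox6a1, Atp5g2 and Atp5g3 overlap.

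Complex V, the ATP synthase, had the smallest median of the 4 complexes that lay above 0, at 0.06, with 15 of 17 genes above 0. At an unadjusted p under 0.05, 4 (23.5%) were higher, and 3 (17.6%) were higher without overlap, against 7.31% and 4.97% of all named genes. In complex V the 5 F1 subunits (Atp5a1, Atp5b, Atp5c1, Atp5d and Atp5e) lay between 0.01 and 0.25, with a median of 0.03. The c ring had a median of 0.02 and the 9 peripheral stalk and membrane subunits of 0.08. Atp5md (Entrez Gene 66477), a small membrane subunit of the ATP synthase, had the lowest p of all 80 genes. Its log2 values were 12.31, 12.12, 11.81 and 12.71 across controls 1 to 4 and 12.89, 12.91, 12.77 and 12.76 across mutants 1 to 4. The mutants were tight and the controls wide, with control 4 just under the mutants. The change was 0.45 (SE 0.11, limma adjusted p = 0.172), a ratio of 1.37. Relative to all tested probe sets it came to 0.43, and to 0.29 without controls 2 and 3.

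Atp5h, a subunit of the peripheral stalk, had 12.89, 12.88, 13.03 and 12.72 in the controls and 12.98, 13.05, 13.12 and 13.09 in the mutants, a change of 0.22 (SE 0.06, limma adjusted p = 0.225). Only control 3 reached into the mutant range. The second Atp5h probe set gave 0.11 (SE 0.07), also with overlapping groups. Atp5j, another stalk subunit, had 13.10, 13.07, 13.06 and 13.11 in the controls and 13.31, 13.33, 13.20 and 13.13 in the mutants, without overlap, a change of 0.12 (SE 0.06). Atp5mpl, a small membrane subunit, had a change of -0.03 (SE 0.06). For Atp5d the 2 probe sets differ, with 0.15 (SE 0.08) for the brighter and 0.42 (SE 0.10) for the dimmer one, whose groups did not overlap.

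The c ring, which turns as protons pass, is built from a single mature protein that 3 genes encode with different import signals. Atp5g1 (Entrez Gene 11951) had 11.62, 11.43, 11.55 and 11.60 in the controls and 11.76, 12.03, 11.71 and 11.89 in the mutants, without overlap, and a change of 0.24 (SE 0.09, limma adjusted p = 0.33). Atp5g2 had 12.12, 11.95, 11.97 and 12.17 in the controls and 12.07, 12.32, 12.13 and 12.06 in the mutants, a change of 0.02 (SE 0.08). Its other probe sets were far dimmer. The first, above background on 3 control and 0 mutant arrays, gave -1.49 (SE 0.60). The second, above background on 1 control and 2 mutant arrays, gave 0.17 (SE 0.52). Atp5g3 stayed between 13.84 and 13.93 on all 8 arrays, a change of -0.03 (SE 0.04). Within arrays, Atp5g1 minus Atp5g2 was 0.20 and Atp5g1 minus Atp5g3 was 0.33 larger in the mutants, with 4 of 4 mutants above all controls for each. Both had a two-sided exact permutation p of 0.0286 and 0.0667 after adjustment. Without controls 2 and 3 they were 0.24 and 0.26. The second Atp5g1 probe set, not used in the pairs, was above background on 2 control arrays. It gave 0.06 (SE 0.41) with overlapping groups.

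**Figure D4:**
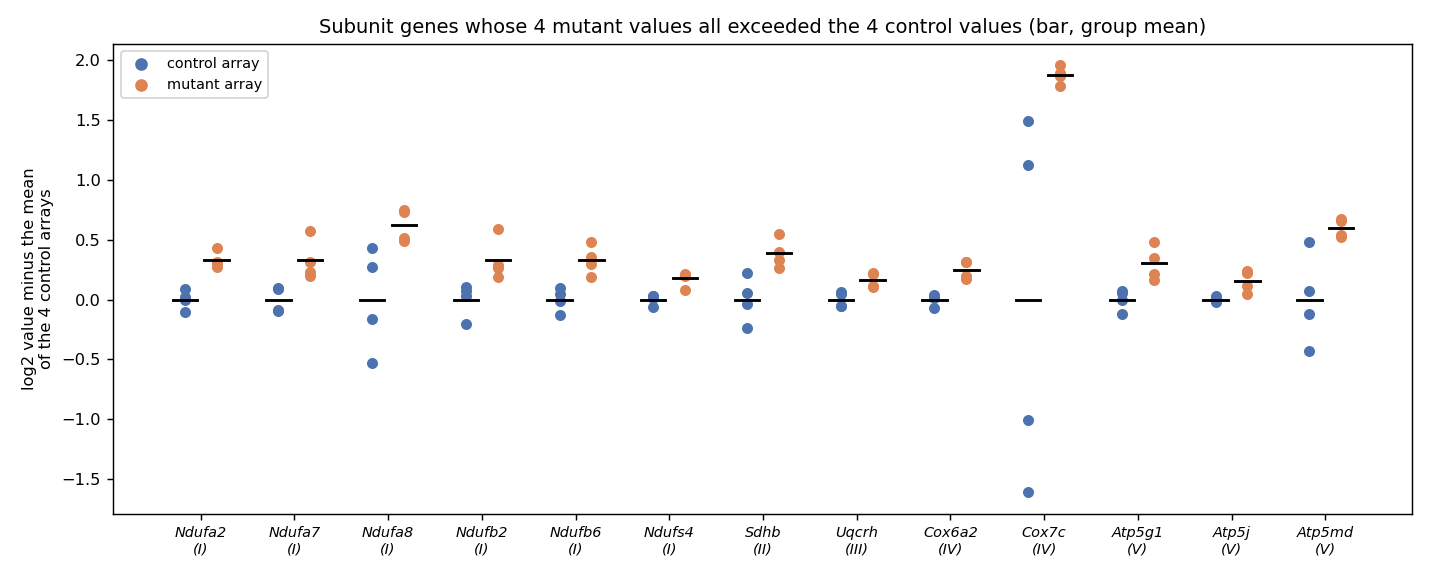
Log2 values minus the mean of the 4 control arrays for the 13 subunit genes in which all 4 mutant arrays (orange) lie above all 4 control arrays (blue); bars are unweighted group means and roman numerals give the complex. For Cox7c, Ndufa8 and Atp5md the control points are spread more widely than the mutant points.

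Probe sets of the same gene mostly shared a sign, but unrelated ones often would too, since most lay above 0. Whether they agreed beyond that lean was not tested. Over all 155 tested probe sets of these genes 131 lay above 0 and 24 below. Of 47 genes with more than 1 tested probe set, 33 had all of them above 0, 1 had all below and 13 had both signs. Of the 83 probe sets used, 12 carry an _s and 6 an _x suffix, which marks probes shared with other transcripts, and values from such sets may include related genes or copies. Of the 13 genes without overlap this holds for Ndufa2, Uqcrh and Cox7c.

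Mitochondrial genes outside the complexes were read from lists of their own. Assembly factors of complexes I to V lay above 0 for 27 of 30 genes with a median of 0.13. At an unadjusted p under 0.05, 3 (10.0%) were higher, against 7.31% of all named genes. In 5 (16.7%) the mutants lay above the controls without overlap, against 4.97%. Among them Ndufaf4, a complex I assembly factor, had a change of 0.37 (SE 0.11) and Atpaf1, which helps build the F1 head, one of 0.52 (SE 0.19), both without overlap. The tricarboxylic acid cycle and pyruvate dehydrogenase lay above 0 for 16 of 17 genes with a median of 0.13. Its lowest p values were those of Sucla2, at 0.24 (SE 0.07), and Idh2, at 0.32 (SE 0.12), and the largest change was 0.33 (SE 0.32), in Pdhx. Fatty acid oxidation lay above 0 for 11 of 16 with a median of 0.12, with Etfb at 0.28 and Fabp3 at 0.19. Other carriers and cristae proteins did for 14 of 16 with a median of 0.05, with Opa1 at 0.14 and Slc25a4, the heart adenine nucleotide carrier, at 0.08. In none of these lists was a gene called.

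Ribosomal protein genes were read by compartment. Those of the mitochondrial ribosome lay above 0 for 57 of 76 genes with a median of 0.15. At an unadjusted p under 0.05, 10 (13.2%) were higher and 1 was lower, against 7.31% and 5.61% of all named genes. Mrps24 had a change of 0.77 (SE 0.20) and Mrps33 of 0.30 (SE 0.10). Those of the cytosolic ribosome lay above 0 for 33 of 52 with a median of 0.02, which is also the median of all named genes. That list includes 4 S6 kinase genes by symbol, and without them it was 31 of 48 with a median of 0.02. Rps26 had a change of 0.12 and Rps27, which varied from 6.85 to 10.63 between arrays, one of -1.21 (SE 0.50). The one transcript of mitochondrial DNA on the array, ND5 of complex I, had a change of 0.05 (SE 0.14).

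Regulators of mitochondrial biogenesis did not lean in 1 direction, with 13 of 25 above 0 and a median of 0.01. The coactivator gene Ppargc1a had 11.56, 11.55, 11.51 and 11.55 in the controls and 11.84, 11.55, 11.56 and 11.93 in the mutants. Mutants 1 and 4 were high and mutants 2 and 3 level with the controls, a change of 0.18 (SE 0.11). The factor genes had changes of -0.17 (SE 0.27) for Nrf1, 0.01 (SE 0.16) for Gabpa, 0.36 (SE 0.25) for Esrra and 0.18 (SE 0.10) for Tfam. Yy1 was lower in every mutant than in every control, by -0.15 (SE 0.05, limma adjusted p = 0.288). Ppargc1b was above background on 1 control array, so no size is given, and Ppara on 0 arrays.

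**Figure D5:**
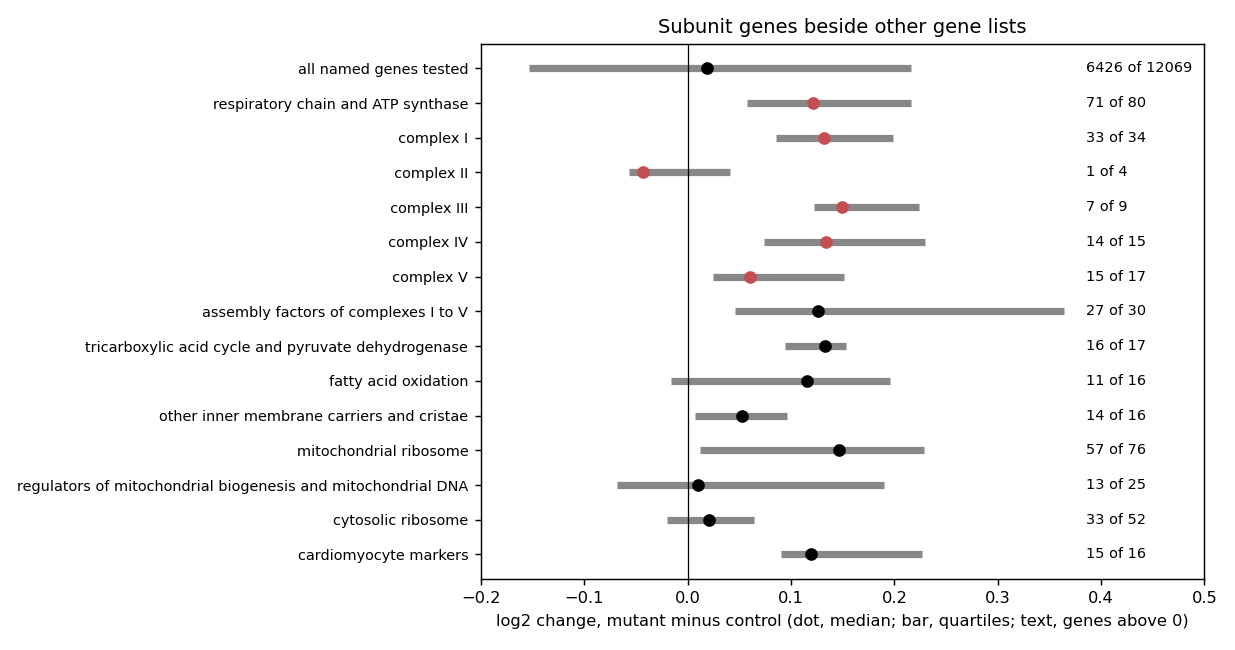
Median log2 change (dot) and quartiles (bar), mutant minus control, of the subunit genes (red) and other lists, with the number of genes above 0 among those tested. Medians of complexes I, III and IV lie at 0.13 to 0.15, like the mitochondrial ribosome and the tricarboxylic acid cycle, while the cytosolic ribosome lies at 0.02.

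Markers of cell types that the canal could hold were read beside the subunit genes. All 16 cardiomyocyte markers were above background on all 8 arrays and 15 lay above 0, with a median of 0.12, close to that of the subunit genes. Against 7.31% of all named genes, 9 of these markers (56.2%) were higher at an unadjusted p under 0.05. Their summed log2 level was 17.29 to 17.35 in the controls and 17.40 to 17.45 in the mutants, without overlap, and Mybpc3 had a change of 0.30 (SE 0.07) and Tnni3 of 0.26 (SE 0.07). Markers of cushion mesenchyme lay below 0 for 8 of 10, with a median of -0.58, and their summed level was 14.94 to 15.01 in the controls and 14.41 to 14.73 in the mutants. Sox9 had a change of -0.54 (SE 0.10) and Foxc2 of -0.61 (SE 0.11). Markers of epicardium lay above 0 for 8 of 8, with a median of 0.60, and summed to 12.42 to 12.74 in the controls and 12.94 to 13.48 in the mutants, with Krt18 at 0.85 and Tbx18 at 0.56. Their part in the shift of the subunit genes was not tested.

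Endothelial markers had a median of 0.54 with 7 of 9 above 0, but their summed level was lower in the mutants, at 12.71 to 12.80 against 12.92 to 13.10. Tek, whose promoter drives the Cre transgene, passed the threshold and fell by 0.72 (SE 0.07, limma adjusted p = 0.000172), and Tie1 had a change of 1.26 with 2 of 4 controls above background. Erythroid markers lay below 0 for 7 of 7, with a median of -0.20 and summed levels of 15.17 to 15.75 in the controls and 15.17 to 15.49 in the mutants, with Epor at -1.28 and Hba-a1 above background on 0 arrays. Of macrophage markers 2 of 6 and of liver and foregut markers 3 of 6 were bright enough to be tested. Of the macrophage genes, Ptprc was above background on 1 control array, so no size is given, and Lyz2 had a change of 0.06 (SE 0.26). The liver and foregut genes, Afp, Apoa1 and Ttr, had a median of -0.72 with 0 of 3 above 0 and SEs of 0.64 to 0.86. Their summed level was highest in mutant 1, at 10.87, and control 4, at 9.98, where the other 6 arrays lay between 7.41 and 8.64. Of 3 neural markers tested 1 lay above 0, Stmn2 at 1.48, which was above background on 2 of 4 controls. Whether these had a part in the values of the subunit genes was not tested.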

How the data were processed

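Gene expression was measured in 4 control and 4 mutant pools of atrioventricular canals, 1 array each. The deposited table holds linear intensities from MAS5, per the submitters' processing notes. Version and background step are not given in the sources used here. Scaling by the authors gave each array a mean signal of 714.971. Intensities were taken as log2(signal + 16) and quantile normalized. Of 45101 probe sets, 27022 were tested, after dropping 64 array controls and the 40% dimmest by mean signal. A probe set filter of this kind favours bright genes.

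The groups were compared in limma 3.58.1 (R 4.3.3), with array weights and eBayes with trend and robust set. Tests were two-sided, with Benjamini-Hochberg adjustment over the 27022 probe sets and a threshold of 0.05. The fit was tested on simulated data. Values by group carry no weights, whereas the change is weighted. Gene symbols came from the platform annotation, in which 34958 probe sets had 1 symbol, 932 several and 9211 none. The number of arrays limits the precision.

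The subunit genes, lists and tests were chosen with earlier results of these data known. Named genes were, in each complex, the 2 with the smallest p in each direction, all of complex II, those without overlap between groups, Cyc1, Cycs and the isoform families; of other lists the 2 with the smallest p and Ppargc1a, Nrf1, Tfam, Gabpa and Esrra. No size is given for a gene whose brightest probe set is above background on under 2 arrays of either group. Other probe sets under that limit are given with their detection. Other probe sets of named genes, where given, and those of Atp5d, were added after their values were seen. The design text says that 2 controls were excluded for noise without naming them, so all 4 deposited were kept. Alternatives covered scaling, weights, offset, filter, the replicate block, an RNA integrity covariate and leaving arrays out.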

Additional observations from a re-analysis of the deposited data

Results flagged for a closer look

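In 84 groups of 4 values (the named genes and the median deviation of each complex, by control and mutant), 5 held a value far from the other 3 of its group, where chance gives about 1 group in 20. Ndufs4 was low on control 2, at 11.68, and low on mutant 2, at 11.83. Uqcr10 was high on control 3, at 11.95, and Cycs was high on control 4, at 13.24, inside the mutant range. The median deviation of complex IV was -0.026 on control 1, nearer to 0 than on controls 2 to 4. Controls 2 and 3 have the raised background given above. The cause of these values was not tested.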

How the results depend on the processing

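Values are relative to the median of all tested probe sets. Of 648 values of 36 named genes under 18 alternatives, 600 kept their sign, and 23 genes kept it in every alternative run.
The 12 probe sets called became 63 under the authors' scaling, 19154 with centred arrays, 34 with an offset of 64, 26 without a filter, 0 without trend and robust (5 subunit genes at an unadjusted p under 0.05), 2 without controls 2 and 3, 4 with the 3 prime to 5 prime covariate, 60 with the replicate block and 5 to 1680 with an array left out. The highest counts came without control 1 (1680) or control 4 (1662), 109 without control 3, 54 without mutant 3 and 5 without mutant 1; the cause was not tested. Subunit genes called numbered 78 with centred arrays, 0 to 6 with an array left out, and 0 otherwise. The replicate block called 0 subunit genes. Same-numbered arrays deviated together in no regular way (correlations of -0.11, 0.006, -0.13 and 0.17). Deviations were taken from each group's own mean, so these correlations cannot decide whether same-numbered arrays were paired.
The median of all subunit genes, 0.10, was 0.31 under the authors' scaling, 0.63 with centred arrays and 0.0549 to 0.12 with an array left out, lowest without control 4 and without control 1 (0.0559). Complexes I to V gave 0.31, 0.14, 0.32, 0.31 and 0.25 under the authors' scaling and 0.64, 0.62, 0.71, 0.65 and 0.60 with centred arrays. With an array left out, complex I gave 0.0539 to 0.135, complex II -0.10 to 0.0364 (above 0 without control 1 or 4) and complex IV 0.0646 to 0.134. Complex IV gave 0.0693 without weights, complex V 0.087 with the covariate, and complex II 0.082 as the mean of all probe sets.
The sign turned under the authors' scaling for Ndufa6 (0.0845), Sdha (0.0958), Sdhc (0.14), Sdhd (0.15), Uqcr10 (0.13), Uqcrb (0.17), Cox4i2 (-0.19), Atp5g2 (0.23), Atp5g3 (0.13) and Atp5mpl (0.20), and with centred arrays for the same genes (0.23, 0.51, 0.68, 0.56, 0.35, 0.49, -0.35, 0.71, 0.46 and 0.49). It turned without weights for Ndufa6 (0.0458), Sdhc (0.0146), Cox7a2l (-0.0104) and Atp5g2 (0.0619), with an offset of 64 for Atp5g2 (0.008), without a filter for Sdhc (0.0013) and Atp5g2 (0.0474), and with the block for Ndufa6 (0.025) and Cox7a2l (-0.0267). It turned without controls 2 and 3 for Ndufa6 (0.0153) and Uqcrb (0.0117), and with the covariate for Cox6b2 (0.0291), Cox7a2l (-0.0111), Atp5g2 (0.023) and Atp5mpl (0.0241). With an array left out, Sdhc ran from -0.0931 to 0.129, Atp5g2 from -0.0269 to 0.0875, Cox4i2 from -0.0146 to 0.596, Cox7a2l from -0.0787 to 0.057, Atp5mpl from -0.147 to 0.0044, Cyc1 from -0.0065 to 0.171 and Ndufa6 from -0.082 to 0.0376. Signal over background limits Cox7c and genes above background on few control arrays.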
